A study of Homo sapiens with 12 samples.

Results

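The 9 genes described here encode ligands, SMAD proteins and transcriptional targets of the BMP and TGF-beta pathways. They are the ligand genes BMP4 and TGFB2, the signal transducer SMAD3, the inhibitory SMADs SMAD6 and SMAD7, and the targets ID1, ID2, ID3 and ID4. They were chosen by symbol, each matched 1 of the 26334 genes in the count table, and all 9 were among the 15352 genes with enough reads to test. RNA was sequenced from A549 cells, a human lung adenocarcinoma line. All cells had been infected with lentivirus and selected for 4 days in 1 µg/ml puromycin, the controls included. The virus carried either a control shRNA or an shRNA against RNF113A, a RING-type E3 ligase that is also part of the spliceosome, and the cells were left untreated or received 25 µg/ml Cisplatin, a DNA-crosslinking drug, for 20 h. The 4 groups are called untreated control, Cisplatin-treated control, untreated depleted and Cisplatin-treated depleted cells, with 3 replicates each. The labels name neither a clone nor separate cultures, so p-values measure the spread between these libraries.

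Ligands of this family bind pairs of receptor kinases at the cell surface, which phosphorylate receptor-regulated SMADs. BMPs act mainly through SMAD1 and SMAD5, whereas TGF-beta acts mainly through SMAD2 and SMAD3, and each set enters the nucleus with SMAD4. SMAD6 and SMAD7 are induced by the pathway and inhibit it, SMAD6 mostly on the BMP side and SMAD7 on both. ID genes are classic BMP targets, and ID proteins bind E proteins and keep them from DNA. In epithelial cells TGF-beta signaling is best known for growth arrest and for the transition to a mesenchymal state.

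Libraries held 33859097 to 56071514 read pairs, of which 26220526 to 45721152 were assigned to a gene, and levels are given as CPM, counts scaled by TMM to the size of each library. RNF113A itself was at 19.46, 19.83 and 20.26 CPM in untreated control cells and at 15.3, 15.83 and 16.82 CPM in untreated depleted cells. That is a log2 fold change of -0.31 (SE 0.092, adjusted p = 0.0247, edgeR's quasi-likelihood test), and the libraries did not overlap. With Cisplatin, RNF113A was at 27.73 to 31.54 CPM in control and at 24.33 to 29.9 CPM in depleted cells, where the libraries overlapped (log2 fold change -0.14, SE 0.0907, adjusted p = 0.233). Of 7 epithelial markers, KRT7, KRT8 and KRT18 were abundant, with group means of 1167 to 7020 CPM. KRT19 (0.9513 to 3.208 CPM) and MUC1 (1.618 to 8.005 CPM) were low in every group. Of 10 markers of immune, fibroblast and endothelial cells, 3 passed the filter on low counts. PTPRC, CD3E, COL1A2 and DCN stayed at group means of at most 0.0513 CPM. Of the 3 tested, CDH5 and PDGFRA were at group means of at most 0.408 CPM, of which CDH5 rose upon depletion with Cisplatin (from 0.0614 to 0.339 CPM, adjusted p = 0.044). CD68, a lysosomal protein gene, rose upon depletion (means of 32 and 44.73 CPM untreated, 30.67 and 63.64 CPM with Cisplatin). Of the 7 epithelial markers, 3 rose and 1 fell upon depletion in untreated cells, against 12.8% and 14.6% of all genes. EPCAM went from 10.33 ± 7.02 to 92.25 ± 6.18 CPM, and CDH1 fell, from 162.4 ± 31.1 to 112.8 ± 19.4 CPM (SD, n = 3). With Cisplatin 4 of these 7 fell in control and 5 in depleted cells, against 27.0% and 27.8% of all genes. None of the 7 rose, against 28.0% and 32.4% of all genes. Their part in the results on the 9 genes was not tested. Both control libraries numbered 2 stood apart: 248 and 158 of 9779 genes differed at least 2-fold from the mean of the other libraries of their group, against 0 to 47 in the other 10 libraries. Depletion effects on the levels of the 9 genes are therefore also given without this pair.

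Promoter sequences were taken from RefSeq (GRCh38.p14), which gave 17 promoters for the 9 genes. The promoter of ID1, which fell with Cisplatin as SMAD6 and BMP4 did, is not shown. The 4 below are shown because SMAD3 has a main start and an internal start whose exon changed in these data, and because SMAD6 and BMP4 fell together with Cisplatin. Each runs 5′ to 3′ from 250 bases before the start of transcription to 30 bases after it, and capitals mark motifs that SMAD proteins bind, on either strand. These were the GC-rich motif GGCGCC, the short motif CAGAC (which reads GTCTG on the other strand) and the palindrome GTCTAGAC. They lie at chr15:67065352-67065631 (plus strand, SMAD3 main), chr15:67166281-67166560 (plus, SMAD3 internal), chr15:66701986-66702265 (plus, SMAD6) and chr14:53955021-53955300 (minus, BMP4).
SMAD3 main: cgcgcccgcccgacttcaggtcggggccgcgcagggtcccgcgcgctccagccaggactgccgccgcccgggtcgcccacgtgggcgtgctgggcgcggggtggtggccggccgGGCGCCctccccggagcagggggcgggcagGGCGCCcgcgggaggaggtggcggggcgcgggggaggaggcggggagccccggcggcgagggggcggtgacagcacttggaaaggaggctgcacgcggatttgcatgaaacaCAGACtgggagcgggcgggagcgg
SMAD3 internal: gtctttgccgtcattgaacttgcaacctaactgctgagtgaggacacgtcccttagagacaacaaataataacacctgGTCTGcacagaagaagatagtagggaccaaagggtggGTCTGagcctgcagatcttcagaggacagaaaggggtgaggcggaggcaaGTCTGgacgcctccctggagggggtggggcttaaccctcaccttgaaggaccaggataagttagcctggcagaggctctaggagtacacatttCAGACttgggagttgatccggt
SMAD6: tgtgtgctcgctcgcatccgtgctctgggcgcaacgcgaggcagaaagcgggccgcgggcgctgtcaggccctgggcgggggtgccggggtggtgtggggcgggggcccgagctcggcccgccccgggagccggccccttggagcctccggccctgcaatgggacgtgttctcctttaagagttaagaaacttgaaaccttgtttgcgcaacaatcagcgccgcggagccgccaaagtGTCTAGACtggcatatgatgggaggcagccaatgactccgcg
BMP4: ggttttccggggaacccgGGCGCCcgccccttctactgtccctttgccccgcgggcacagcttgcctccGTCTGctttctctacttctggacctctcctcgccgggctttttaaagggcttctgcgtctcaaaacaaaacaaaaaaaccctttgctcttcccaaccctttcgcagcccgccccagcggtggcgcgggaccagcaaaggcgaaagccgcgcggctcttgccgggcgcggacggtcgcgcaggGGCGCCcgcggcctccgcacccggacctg
Searched over 250 bases before and 50 after the start, the internal SMAD3 promoter held 4 copies of CAGAC, and the main SMAD3 promoter held 2 of GGCGCC and 1 of CAGAC. The SMAD6 promoter held the palindrome GTCTAGAC and the BMP4 promoter shown 2 copies of GGCGCC and 1 of CAGAC. Further BMP4 promoters held 1 of CAGAC each and no GGCGCC, and further SMAD3 promoters held 0, 0 and 1 of CAGAC. The SMAD7 promoters held 2, 1 and 0 copies of CAGAC and the TGFB2 promoter 2. Of 35116 RefSeq promoters, 19.2% held GGCGCC, 45.3% held CAGAC, 0.57% held CAGAC at least 4 times and 0.202% held GTCTAGAC. The ID1 and ID2 promoters held none of these 3 motifs, and ID1 fell with Cisplatin in control and depleted cells alike. ID3 and ID4 held 1 copy of CAGAC each. Whether the motifs have a part in any change was not tested. Promoters of ID2 and ID4 each held 1 E-box (CANNTG), the site of E proteins, which 68.7% of all promoters held. The searched motifs share no bases with each other in these 4 promoters, and a match describes letters, not binding.

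Cisplatin lowered BMP4, SMAD6 and ID1 and raised SMAD7 in both control and depleted cells, and each passed the test whichever library was left out. Depletion lowered SMAD3 and TGFB2 in both untreated and Cisplatin-treated cells, less firmly. With 1 library left out, SMAD3 passed in 10 of 12 fits untreated and in 3 with Cisplatin, and TGFB2 in 7 and 12. In control cells 5 of 9 genes passed the test (adjusted p under 0.05): BMP4, SMAD6, ID1 and ID2 fell and SMAD7 rose. In depleted cells 6 of 9 passed: BMP4, SMAD6, ID1, ID3 and ID4 fell and SMAD7 rose. These counts stand against 55.0% and 60.2% of all 15352 genes, so the number of members that passed was near the background. By direction, 1 of 9 was higher and 4 of 9 lower in control cells, against 28.0% higher and 27.0% lower over all genes, and 1 of 9 was higher and 5 of 9 lower in depleted cells, against 32.4% and 27.8%. The same 5 and 6 genes had no overlap between libraries, against 56.1% and 74.2% of all genes. With a change of at least 2-fold as well, BMP4 alone was called in control cells (background 19.8%), and BMP4, SMAD6, ID1 and ID4 were called in depleted cells (background 23.1%). The median log2 fold change of the 9 genes was -0.74 in control and -0.86 in depleted cells, against -0.0053 and 0.056 over all genes.

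**Figure D1:**
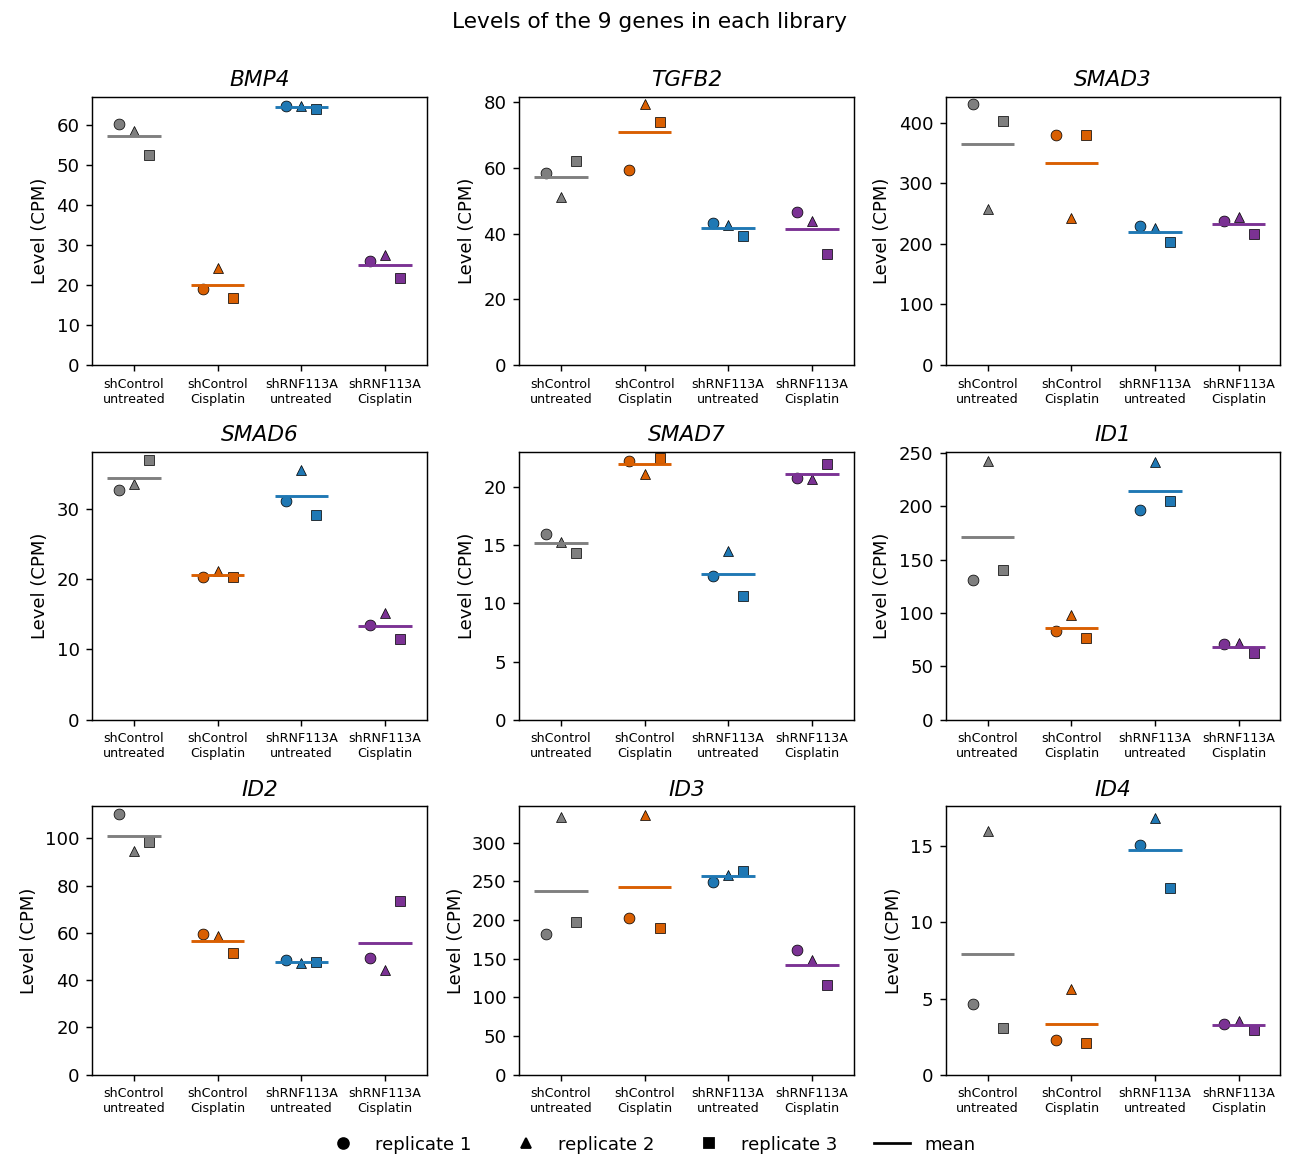
Levels in CPM (vertical axes, from 0) of the 9 genes in each of the 12 libraries, by group, with a line at the group mean and a symbol for each replicate number. BMP4, SMAD6 and ID1 lie lower in both Cisplatin-treated groups, SMAD7 lies higher, and replicate 2 of the control cells stands off the other control libraries for SMAD3, ID3 and ID4 (257.8 against 403.3 and 431.6 CPM of SMAD3 without Cisplatin).

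Upon depletion fewer genes passed. In untreated cells ID2, SMAD3 and TGFB2 fell, 3 of 9 genes against 27.4% of all genes, and in Cisplatin-treated cells ID3, SMAD3, SMAD6 and TGFB2 fell, 4 of 9 against 42.9%. No member rose in either setting, while 12.8% and 21.1% of all genes rose, and 14.6% and 21.8% fell. Without overlap between libraries were BMP4, TGFB2, SMAD3 and ID2 in untreated cells (4 of 9, background 43.3%) and TGFB2, SMAD6, ID1 and ID3 with Cisplatin (4 of 9, background 57.7%). At 2-fold or more, ID2 was called in untreated cells (background 8.66%) and no member was called with Cisplatin (background 12.3%). The effects of Cisplatin and depletion fitted as separate additive terms gave 5 of 9 members past the test for each, against 66.8% and 47.5% of all genes. With the 2-fold limit they gave 3 and 0 members, against 21.5% and 11.0%. The 2 depletion comparisons and the 2 Cisplatin comparisons share groups with each other, so they are not independent.

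**Figure D2:**
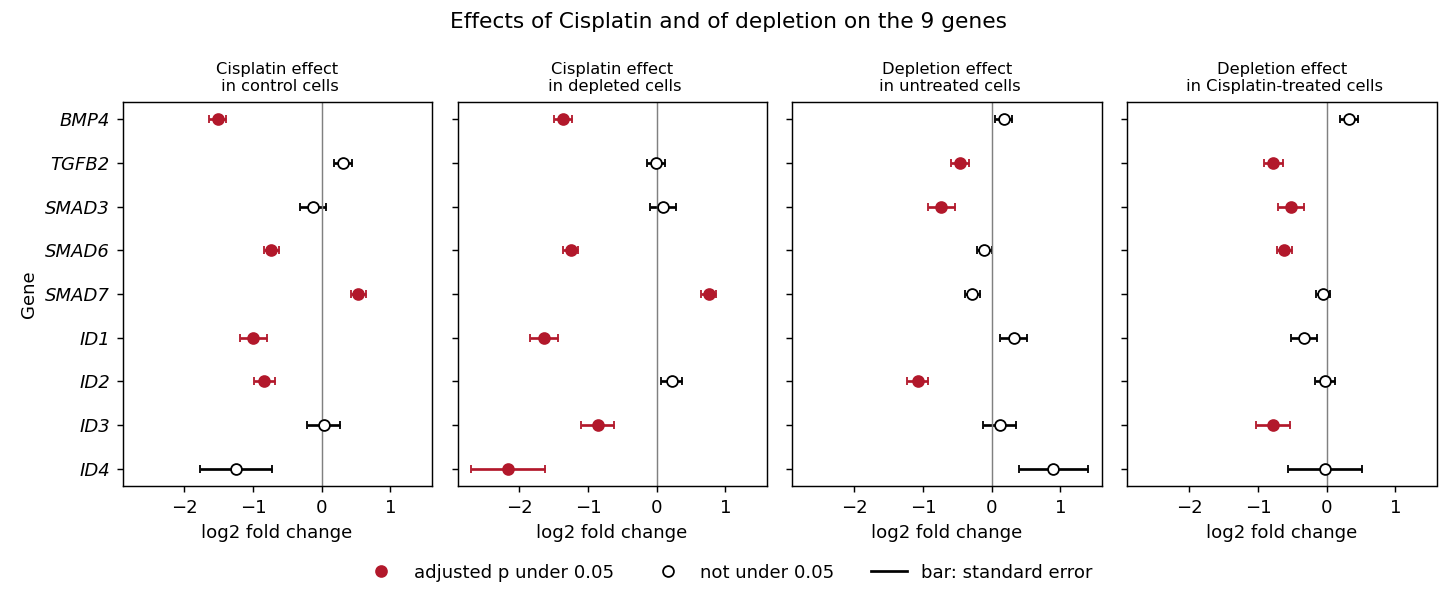
Log2 fold changes (horizontal axes) of the 9 genes for both Cisplatin effects and both depletion effects; points are estimates of edgeR's quasi-likelihood fit, bars are standard errors, and filled points have an adjusted p under 0.05. BMP4 reaches -1.52 and -1.36 with Cisplatin, and ID2 reaches -1.08 with depletion in untreated cells.

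BMP4, a secreted ligand of the BMP branch, was at 60.49, 58.67 and 52.55 CPM in untreated control cells and at 19.13, 24.2 and 16.69 CPM after Cisplatin. It was at 64.82, 64.82 and 64.14 CPM in untreated depleted cells and at 25.97, 27.51 and 21.85 CPM after Cisplatin. Every treated library lay below every untreated one. In RNA from whole cultures, fewer cells with a transcript and less of it per cell cannot be told apart. The fall was 2.86-fold in control cells (log2 fold change -1.52, SE 0.128, adjusted p = 1.02e-06) and 2.57-fold in depleted cells (-1.36, SE 0.128, adjusted p = 2.2e-06). The difference between these falls was 0.16 on the log2 scale (adjusted p of the interaction 0.671). Depletion did not pass for BMP4 in untreated cells (0.17, adjusted p = 0.323, or 0.19 and 0.111 without the control replicates 2), although the libraries did not overlap. With Cisplatin it stood at 0.33 (SE 0.128, adjusted p = 0.0543) and passed at 0.33 with the replicate block (adjusted p = 0.0198) and at 0.49 without the control replicates 2 (adjusted p = 0.000777). The block treats same-numbered control and depleted libraries as paired, although these hardly deviated together.

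TGFB2, a TGF-beta ligand that is secreted in latent form, was at 58.59, 51.18 and 62.23 CPM in untreated control and at 59.32, 79.45 and 74 CPM in Cisplatin-treated control cells. Depleted libraries lay lower, at 43.33, 42.48 and 39.27 CPM untreated and at 46.68, 43.93 and 33.87 CPM with Cisplatin, and none of these 6 reached the lowest control library. The fall upon depletion was 1.38-fold in untreated cells (log2 fold change -0.46, SE 0.133, adjusted p = 0.0229) and 1.71-fold with Cisplatin (-0.77, SE 0.133, adjusted p = 0.000774). The first of these missed the threshold when any 1 of 5 libraries was left out (control replicates 1 and 3 and each depleted replicate, -0.40 to -0.49, adjusted p up to 0.0808), and the second passed in all 12 such fits. Without both control replicates 2 the falls were -0.54 (adjusted p = 0.00143) and -0.69 (adjusted p = 0.000127). Cisplatin itself did not pass for TGFB2 in control cells (0.31, SE 0.132, adjusted p = 0.0657) or in depleted cells (-0.0063, adjusted p = 0.972). Within control cells alone, with replicates paired, the first value passed (0.30, adjusted p = 0.0323).

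SMAD3, which carries the TGF-beta signal to the nucleus, was at 431.6, 257.8 and 403.3 CPM in untreated control cells and at 229.5, 225.3 and 203 CPM in untreated depleted cells. With Cisplatin the levels were 380.4, 241.8 and 379.9 CPM in control and 238, 244.7 and 216.5 CPM in depleted cells. Control replicates 2 lay near the depleted libraries in both settings, and with Cisplatin the groups overlapped. SMAD3 fell 1.66-fold upon depletion in untreated cells (log2 fold change -0.73, SE 0.192, adjusted p = 0.0144) and 1.43-fold with Cisplatin (-0.52, SE 0.191, adjusted p = 0.0446). The first fall missed the threshold without control replicate 1 (-0.59, adjusted p = 0.0571) or depleted replicate 3 (-0.68, adjusted p = 0.0573). The second missed it in 9 of the 12 fits that left out 1 library (adjusted p up to 0.137) and with HTSeq exonic counts (-0.49, adjusted p = 0.0624). Without both control replicates 2 the falls were -0.93 (SE 0.0731, adjusted p = 6.41e-08) and -0.71 (SE 0.0733, adjusted p = 1.29e-06). Cisplatin left no difference past the test in SMAD3, with -0.12 (SE 0.191) in control and 0.088 (adjusted p = 0.708) in depleted cells.

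SMAD6, the inhibitory SMAD of the BMP branch, was at 32.66, 33.45 and 36.86 CPM in untreated control cells and at 20.31, 21.19 and 20.26 CPM after Cisplatin. In depleted cells it was at 31.05, 35.52 and 29.06 CPM untreated and at 13.44, 15.21 and 11.53 CPM after Cisplatin. The Cisplatin-treated depleted libraries were the lowest of all 12. SMAD6 fell 1.67-fold with Cisplatin in control cells (log2 fold change -0.74, SE 0.108, adjusted p = 9.82e-05) and 2.38-fold in depleted cells (-1.25, SE 0.11, adjusted p = 1.34e-06). Depletion gave -0.11 in untreated cells (adjusted p = 0.488) and lowered SMAD6 1.54-fold with Cisplatin (-0.62, SE 0.11, adjusted p = 0.000923). Without the control replicates 2 these values were -0.12 (adjusted p = 0.368) and -0.60 (adjusted p = 0.000394). The interaction was -0.51 (adjusted p = 0.0793), and it passed with DESeq2 (-0.54, adjusted p = 0.0199) and without the control replicates 2 (-0.47, adjusted p = 0.0497).

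SMAD7, which blocks receptor signaling of both branches, moved opposite to SMAD6 with Cisplatin. It was at 15.92, 15.31 and 14.29 CPM in untreated control cells and at 22.26, 21.1 and 22.45 CPM after Cisplatin. In depleted cells it was at 12.36, 14.52 and 10.61 CPM untreated and at 20.74, 20.68 and 21.93 CPM after Cisplatin, and all 6 treated libraries lay above all 6 untreated ones. SMAD7 rose 1.45-fold in control cells (log2 fold change 0.53, SE 0.106, adjusted p = 0.00106) and 1.69-fold in depleted cells (0.76, SE 0.108, adjusted p = 6.8e-05). Depletion did not pass for SMAD7 in untreated cells (-0.28, adjusted p = 0.0734) or with Cisplatin (-0.055, adjusted p = 0.695). The first of these passed without depleted replicate 2 (-0.40, adjusted p = 0.0206). Without the control replicates 2 they were -0.27 (adjusted p = 0.0654) and -0.085 (adjusted p = 0.521).

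ID1, the most studied ID gene and a direct BMP target, was at 131.4, 242.3 and 140.1 CPM in untreated control cells and at 82.71, 98.28 and 76.98 CPM after Cisplatin. In depleted cells it was at 196.1, 241.1 and 204.5 CPM untreated and at 71.2, 71.53 and 62.72 CPM after Cisplatin. ID1 fell 1.99-fold in control cells (log2 fold change -0.99, SE 0.196, adjusted p = 0.000951) and 3.12-fold in depleted cells (-1.64, SE 0.199, adjusted p = 1.84e-05). Control replicate 2 was the highest untreated library and overlapped with the depleted ones, and depletion in untreated cells gave 0.32 (adjusted p = 0.241). With the control replicates 2 left out it was 0.65 (SE 0.0888, adjusted p = 2.27e-05), with every depleted library above both remaining control libraries. With Cisplatin the depletion effect was -0.33 (adjusted p = 0.193), or -0.22 without the pair (adjusted p = 0.0443).

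ID2, which like ID1 lacks a DNA-binding domain, was at 110.2, 94.49 and 98.59 CPM in untreated control cells. It was at 59.51, 58.76 and 51.57 CPM in Cisplatin-treated control cells, at 48.7, 47.23 and 47.72 CPM in untreated depleted cells and at 49.39, 44.33 and 73.64 CPM with both. The untreated control group thus stood above all other libraries. ID2 fell 1.79-fold with Cisplatin in control cells (log2 fold change -0.84, SE 0.151, adjusted p = 0.000493) and 2.11-fold upon depletion in untreated cells (-1.08, SE 0.152, adjusted p = 0.000332). Both of these passed in all 12 fits that left out 1 library. In depleted cells Cisplatin gave 0.22 (SE 0.151, adjusted p = 0.229), which turned to -0.031 without Cisplatin-treated depleted replicate 3, the highest of its group. Depletion with Cisplatin gave -0.022 (adjusted p = 0.916), or -0.27 without that library (adjusted p = 0.0493). Without the control replicates 2 the depletion effects were -1.12 (adjusted p = 1.22e-05) in untreated cells and 0.0018 (adjusted p = 0.993) with Cisplatin.

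With all 12 libraries, ID2 was the 1 member whose response to Cisplatin differed with depletion past the test. The interaction was 1.06 on the log2 scale (SE 0.213, adjusted p = 0.0207), against 4.25% of all genes that passed for it and 1.28% that also reached 2-fold. It stayed past the threshold in 8 of 12 fits with 1 library left out. It missed it without Cisplatin-treated control replicate 3 (0.94, adjusted p = 0.0557) and without any 1 of the untreated depleted replicates (1.07, 1.04 and 1.05, adjusted p = 0.0625, 0.0533 and 0.0556). Without Cisplatin-treated depleted replicate 3 it was 0.80 (adjusted p = 0.024). Leaving out both control replicates 2 gave 1.13 (adjusted p = 0.0022).

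ID3 was at 182.2, 333.3 and 197.8 CPM in untreated control cells and at 202.6, 336.1 and 189.5 CPM in Cisplatin-treated control cells, so that replicate 2 was the highest in both. In depleted cells it was at 249.6, 258.4 and 264.1 CPM untreated and at 161.6, 147.9 and 115.5 CPM after Cisplatin, without overlap. ID3 fell 1.82-fold with Cisplatin in depleted cells (log2 fold change -0.86, SE 0.245, adjusted p = 0.00884), and the control value was 0.030 (SE 0.242, adjusted p = 0.925). The difference between these responses did not pass with all libraries (interaction -0.89, adjusted p = 0.157) and passed without the control replicates 2 (-0.91, adjusted p = 0.000995). Depletion with Cisplatin lowered ID3 1.71-fold (-0.78, SE 0.244, adjusted p = 0.0225). That fall missed the threshold without Cisplatin-treated control replicate 2 (-0.51, adjusted p = 0.0753) or depleted replicate 3 (-0.65, adjusted p = 0.0954), and without both control replicates 2 it was -0.47 (adjusted p = 0.00111). In untreated cells the depletion effect was 0.11 (adjusted p = 0.759), or 0.44 without the pair (adjusted p = 0.00299).

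ID4, whose mean was the lowest of the 9 genes in untreated control cells, was at 4.643, 16.02 and 3.049 CPM in untreated control and at 2.289, 5.629 and 2.107 CPM in Cisplatin-treated control cells, where replicate 2 was again the highest. In depleted cells it was at 15.11, 16.88 and 12.24 CPM untreated and at 3.327, 3.555 and 2.956 CPM after Cisplatin. ID4 fell 4.49-fold with Cisplatin in depleted cells (log2 fold change -2.17, SE 0.538, adjusted p = 0.00395). In control cells the value was -1.25 (SE 0.525, adjusted p = 0.0614), and with the replicates of control cells paired it was -1.07 and passed (adjusted p = 0.000481). With 1 library left out the control value ranged from -1.85 to -0.20, the latter without untreated control replicate 2, and passed in 3 of 12 fits. Depletion in untreated cells gave 0.90 (SE 0.504, adjusted p = 0.208), 1.17 with the replicate block (adjusted p = 0.0213) and 1.94 without the control replicates 2 (SE 0.177, adjusted p = 3.3e-07). For the block the limit given for BMP4 holds here too. With Cisplatin the depletion effect changed sign, from -0.024 (adjusted p = 0.976) to 0.58 without the pair (adjusted p = 0.024).

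Without the 2 control libraries that stood apart, more members passed for depletion: 6 of 9 in untreated cells instead of 3, 7 of 9 with Cisplatin instead of 4, and 5 of 9 for the interaction instead of 1. Of all genes, 41.8%, 55.6% and 17.0% passed in these fits. In untreated cells ID1, ID3 and ID4 then rose while ID2, SMAD3 and TGFB2 fell. With Cisplatin BMP4 and ID4 rose, and ID1, ID3, SMAD3, SMAD6 and TGFB2 fell. The interaction was then past the threshold for ID1 (-0.88, adjusted p = 0.000518), ID2, ID3, ID4 (-1.36, adjusted p = 0.00344) and SMAD6. Among genes called for depletion without the pair that averaged 10 CPM or more, 28% of 397 in untreated cells and 23.9% of 443 with Cisplatin had the control replicate 2 nearer to the depleted mean than to the mean of the other controls. These shares were not computed for control replicates 1 and 3, so they have no baseline to be read against. The choice to leave out both control replicates 2 was made after the data were seen, and what set the pair apart was not tested.

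**Figure D3:**
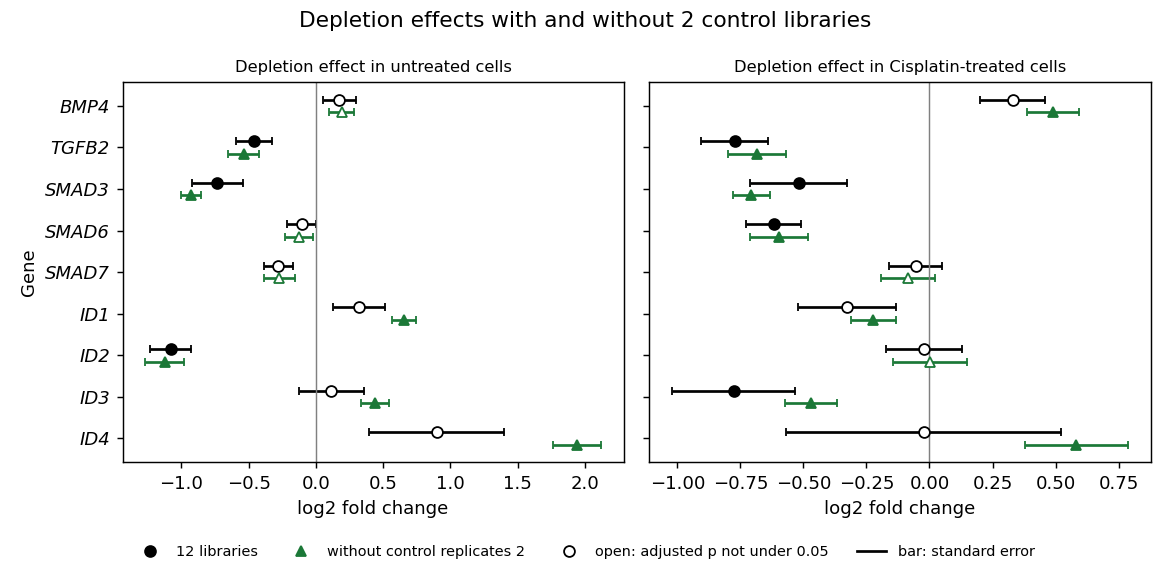
Log2 fold changes upon depletion (horizontal axes) of the 9 genes in untreated (left) and Cisplatin-treated cells (right), from all 12 libraries (circles) and without both control replicates 2 (triangles); bars are standard errors and open symbols have an adjusted p not under 0.05. In untreated cells ID4 moves from 0.90 to 1.94 and ID1 from 0.32 to 0.65 when the pair is left out.

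Per kilobase of the exons annotated for each gene (Gencode v19), ID3 and ID1 had the highest levels in untreated control cells, with 190.1 ± 66.4 and 138.9 ± 50 CPM per kb (mean ± SD, n = 3). ID2 (47.2 ± 3.8), SMAD3 (44.9 ± 11.5), BMP4 (22.22 ± 1.61), TGFB2 (11.35 ± 1.11), SMAD6 (9.77 ± 0.635), SMAD7 (4.654 ± 0.253) and ID4 (3.372 ± 3.02 CPM per kb) followed. The libraries of ID3 and ID1, of ID2 and SMAD3, of TGFB2 and SMAD6, and of SMAD7 and ID4 overlapped on this scale, so the order within these pairs did not exceed their spread. These lengths pool all transcripts of a gene, which makes the levels of genes with many transcripts, such as SMAD3 with 12, lower bounds.

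Intronic reads, a measure of unspliced RNA, were counted as reads within a gene minus reads on its exons and were set against the exonic reads of the same gene. SMAD3 had 8.1, 9.564 and 8.955 intronic reads per 100 exonic reads in untreated control cells and 11.9, 13.05 and 17 after Cisplatin. Depleted cells had 12.94, 15.4 and 11.28 untreated, and 31.65, 30.85 and 33.33 after Cisplatin, far above all other libraries. The ratio of SMAD3 rose with Cisplatin in control cells (log2 change of the ratio 0.64, adjusted p = 0.0116) and in depleted cells (1.28, adjusted p = 1.89e-06). It also rose upon depletion in untreated cells (0.57, adjusted p = 0.0241) and with Cisplatin (1.21, adjusted p = 6.04e-06). The first rise missed the threshold without untreated control replicate 1 (0.58, adjusted p = 0.0618), and the third missed it when any 1 of 5 libraries was left out (adjusted p up to 0.142).

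TGFB2 showed the same order, with 3.971, 4.762 and 4.424 intronic reads per 100 exonic reads in untreated control cells and 15.77, 17.52 and 21.67 in Cisplatin-treated depleted cells. Its ratio rose with Cisplatin in control cells (0.68, adjusted p = 0.0163) and in depleted cells (1.65, adjusted p = 2.92e-07), and upon depletion with Cisplatin (1.37, adjusted p = 4.13e-06). The first of these was lost without untreated control replicate 1 (0.61, adjusted p = 0.077) or 3 (0.69, adjusted p = 0.0508). SMAD7 went from 5.8, 5.281 and 5.794 intronic reads per 100 exonic reads in untreated control to 18.7, 18.51 and 23.33 in Cisplatin-treated depleted cells, with rises of 1.05 with Cisplatin in depleted cells (adjusted p = 0.00173) and of 1.52 upon depletion with Cisplatin (adjusted p = 2.8e-05). ID2 had 3.746, 2.144 and 3.484 in untreated control and 10.31, 8.624 and 7.214 in Cisplatin-treated depleted cells, with a rise of 1.40 upon depletion with Cisplatin (adjusted p = 0.000638). Its rise in untreated cells (0.89, adjusted p = 0.0479) was lost when any 1 of 9 libraries was left out (adjusted p up to 0.199).

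SMAD6 was the exception in level and in direction. It had more intronic than exonic reads in every library, with 331.4, 196.2 and 264.5 intronic reads per 100 exonic reads in untreated control cells and 173.4, 108.1 and 203 after Cisplatin. With all libraries this was the only ratio of a member to fall past the test (log2 change -0.72, adjusted p = 0.0236 with Cisplatin in control cells), and the fall missed the threshold without untreated control replicate 1 (-0.54, adjusted p = 0.14) or 3 (-0.70, adjusted p = 0.0726). Without Cisplatin-treated control replicate 3 the ratios of BMP4 (-0.76, adjusted p = 0.0172) and ID3 (-0.51, adjusted p = 0.023) also fell. Whether these reads come from the SMAD6 precursor or from another RNA within its introns was not tested. ID1 had 0 intronic reads in all 12 libraries, so it has no ratio, and ID4 had 1 to 13 per library.

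The rises of these ratios were part of a change over all genes. In control cells Cisplatin raised the ratio of 2 members (SMAD3 and TGFB2) and lowered 1, against 15.5% and 1.09% of 12601 genes. In depleted cells it raised the ratio of 3 members against 59.4% of genes. Depletion raised 2 members in untreated cells against 24.8%, and 7 members with Cisplatin (BMP4, TGFB2, SMAD3, SMAD6, SMAD7, ID2 and ID3) against 75.2%. The median log2 change over all genes was 0.28, 0.74, 0.46 and 0.95 in these 4 comparisons, and changes of members are to be read against it. Intronic reads made up 4.35 to 4.82% of genic reads in untreated control libraries, 4.65 to 7.16% in Cisplatin-treated control, 5.75 to 6.63% in untreated depleted and 9.93 to 10.3% in Cisplatin-treated depleted libraries.

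**Figure D4:**
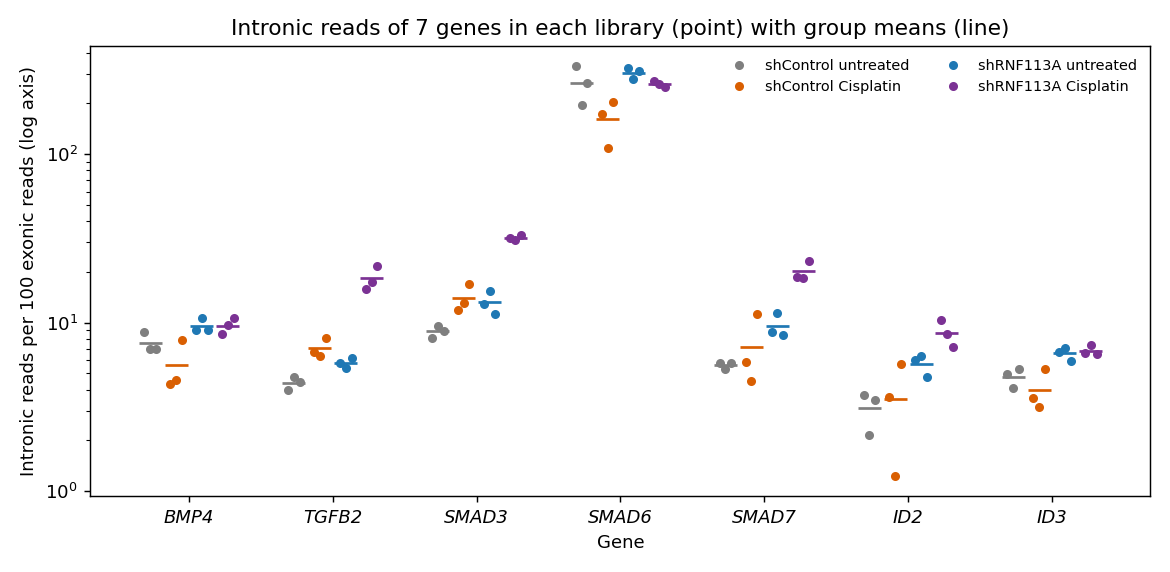
Intronic reads per 100 exonic reads (vertical log axis) of the 7 members other than ID1 and ID4, by group, with points for libraries and lines for group means. The Cisplatin-treated depleted group is the highest for TGFB2 (15.77 to 21.67), SMAD3 (30.85 to 33.33) and SMAD7 (18.51 to 23.33), and SMAD6 lies above 100 in every library.

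An exon inside SMAD3 appeared with Cisplatin while the level of the whole gene did not change past the test. The authors' splicing tables hold 1 retained-intron event for the 9 genes, on a SMAD3 exon at chr15:67458869-67459191 of hg19, which contains an intron at 67459030 to 67459116. The exon starts at base 67458869, where the Gencode v19 transcripts SMAD3-008 and SMAD3-009 begin. The internal promoter shown above, found once in GRCh37 by its sequence, places the start of transcription at the same base. The transcript SMAD3-001 begins at base 67358183, in the first part of the gene (chr15:67356101-67487533, plus strand).

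Reads of the event, with the intron kept or removed, numbered 1, 1 and 4 in untreated control and 216, 101 and 210 in Cisplatin-treated control libraries, in the order of the tables, which name no replicates. In depleted libraries they numbered 1, 3 and 4 untreated and 54, 55 and 67 after Cisplatin, so treated and untreated groups did not overlap in either case. The log2 fold change of these reads with Cisplatin was 6.07 in control cells (SE 0.495, adjusted p = 5.38e-05, edgeR's quasi-likelihood test over 3707 events) and 4.36 in depleted cells (SE 0.402, adjusted p = 1.3e-07). It ranked 4 and 6 from the top, where 10.6% and 13.5% of events were called. Upon depletion with Cisplatin the reads fell by 1.39 on the log2 scale (SE 0.272, adjusted p = 0.00384), where 7.59% of events were called. The inclusion level of the intron, which corrects the reads for the length of each form, was 71 ± 1.49% in Cisplatin-treated control cells and 74.7 ± 9.16% in Cisplatin-treated depleted cells (SD, n = 3), and it passed in none of the 3 comparisons in which it could be tested. Both Cisplatin comparisons rest on untreated libraries with 1 to 4 reads, too few to show a change in inclusion. Between the Cisplatin-treated groups the log2 change was 0.28 (SE 0.518, adjusted p = 0.707). The test on the summed reads was chosen after the reads had been seen.

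**Figure D5:**
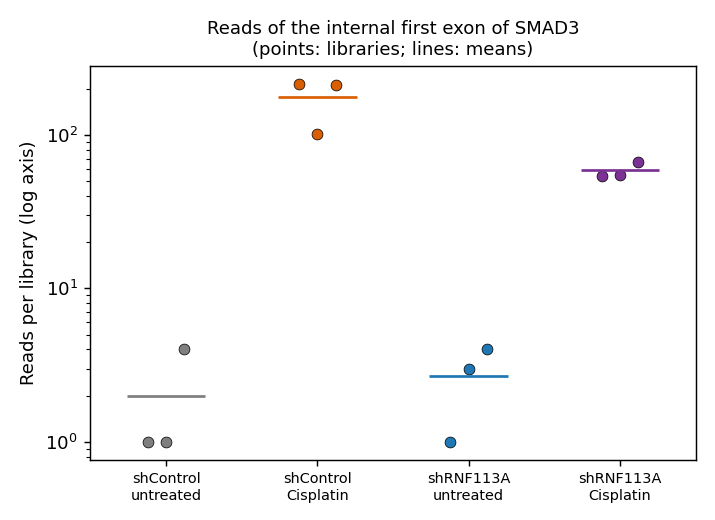
Reads of the SMAD3 exon at the internal start (vertical log axis) in each library, by group, with points for libraries and lines for group means. Untreated libraries hold 1 to 4 reads, Cisplatin-treated control libraries 101 to 216 and Cisplatin-treated depleted libraries 54 to 67.

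Skipped-exon events added small shifts. Members had 13 and 11 events with Cisplatin in control and depleted cells, of which 1 each passed the test, against 0.298% and 1.68% of all events, and 13 and 10 events upon depletion, of which none passed, against 0.0851% and 0.668%. The exon of SMAD3 at chr15:67457591-67457722 (hg19) was skipped in 4, 3 and 11 reads of untreated and in 0, 0 and 0 reads of Cisplatin-treated control libraries, so that inclusion went from 98.8 to 100% (adjusted p = 0.0385). The skipping junction joins base 67459117, inside the exon of the internal start. An exon of TGFB2 at chr1:218536676-218536759 had an inclusion of 1.75 ± 0.88% in untreated and 7.95 ± 3.92% in Cisplatin-treated depleted cells (adjusted p = 0.0351), from 5, 2 and 3 against 16, 14 and 4 inclusion reads. No tested event of a member reached a difference in inclusion of 0.2.

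Of 103 other genes of the pathway, in lists of ligands, receptors, SMADs, regulators, extracellular antagonists, E proteins and TGF-beta response genes, 89 were tested. With Cisplatin 30 of the 89 rose and 28 fell in control cells, against 28.0% and 27.0% of all genes, and 25 rose and 31 fell in depleted cells, against 32.4% and 27.8%. Among those that averaged 1 CPM or more, RGMA, a BMP co-receptor, rose most in both (log2 fold change 5.97, adjusted p = 9.79e-10, and 5.11, adjusted p = 4.24e-09), followed by AMHR2, the receptor of the anti-Müllerian hormone (2.78 and 3.49). RGMA was near the floor without Cisplatin, with 10 to 19 reads per control and 7 to 8 per depleted library. Its means in control and depleted cells were 0.4003 and 0.2123 CPM untreated and 25.11 and 7.446 CPM with Cisplatin. GDF15, a stress-induced ligand, rose by 2.64 in control and 1.84 in depleted cells, and CHRD, an antagonist of BMPs, by 1.77 and 2.88. AMHR2 and CHRD were also near the floor without Cisplatin. Untreated means in control and depleted cells were 0.3549 and 0.1786 CPM for AMHR2 and 0.529 and 0.2255 CPM for CHRD. RGMA, AMHR2 and CHRD averaged 1 CPM only through Cisplatin-treated cells. There AMHR2 was at 2.454 and 2.019 CPM and CHRD at 1.823 and 1.665 CPM. LTBP1, which binds latent TGF-beta, fell in both (-4.26 and -3.97). BMP6 (-3.70 in control and -2.92 in depleted cells), the transcription factor ATOH8 (-3.02 and -3.76) and the BMP binder BMPER (-2.45 and -3.97) also fell in both. ATOH8 averaged 1 CPM only through untreated cells, with means of 0.4211 and 0.3719 CPM after Cisplatin. BMPER was near the floor, with 13 to 14 reads per untreated control library and 129 to 153 per untreated depleted library. With Cisplatin it held 0 to 5 reads per control library and 6 to 8 per depleted library.

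Upon depletion 17 of these 89 genes rose and 21 fell in untreated cells, against 12.8% and 14.6% of all genes. With Cisplatin 16 rose and 30 fell, against 21.1% and 21.8%, and the median was -0.17 against -0.0069 over all genes. BMPER (3.41) and BMP5 (1.49) rose in untreated cells, while FN1, the fibronectin gene and a known TGF-beta response gene (-3.33, adjusted p = 6.07e-07), INHBB (-2.60) and the integrin gene ITGB6 (-1.77) fell. With Cisplatin BMPER (1.90), BMP6 (1.50) and SNAI1 (1.39) rose, and FN1 (-3.13), BMP7 (-2.86, and -1.57 in untreated cells) and ITGB6 (-2.66) fell. The BMPER rise compares 0 to 5 with 6 to 8 reads per library. Its average reached 1 CPM only through untreated depleted cells (mean of 3.889 CPM). Upon depletion with Cisplatin 0 of 15 receptors and co-receptors rose and 9 fell, and 5 of 15 extracellular antagonists and binders of latent forms rose and 1 fell. In the other lists, members included, 3 of 17 ligands rose and 7 fell. TGF-beta response genes had 5 rises and 4 falls of 14, and the list of E proteins 1 and 2 of 10. Inhibitory SMADs and regulators had 2 and 7 of 17, other SMADs 0 and 3 of 6, and ID genes 0 and 1 of 4. The lists were not tested against each other. For the interaction, 2 of the 89 genes passed with a value above 0 and 3 with a value below 0, against 4.25% of all genes that passed.

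Over the 12 libraries the levels of BMP4 and ID1 (Pearson r = 0.899 on log2 CPM), ID1 and ID4 (0.894), and ID1 and SMAD6 (0.884) ran together, and BMP4 and SMAD7 ran opposite (-0.923). ID2 had no r above 0.561 with another member. Among 9779 genes that averaged 10 CPM or more, the 3 with the pattern most like BMP4 were E2F2 (0.989), TGFBR2 (0.988) and RALGAPA2 (0.987), and those most like SMAD6 were DAPK1 (0.99), PPP2R2C (0.99) and FANCC (0.986). ID1 was nearest to LOC400655 (0.988), CHID1 and ZNF76 (0.986 each), ID3 to PTP4A1 (0.975), NCOA7 (0.943) and TFG (0.936), and ID4 to RPN2 (0.977), NOSTRIN and SLC12A2 (0.972 each). SMAD3 was nearest to PNMA2 (0.974), AAK1 (0.973) and C2orf69 (0.958), SMAD7 to SLFN5 (0.974), YTHDF1 and ZBTB4 (0.97 each), and TGFB2 to CHSY1 (0.956), SMIM13 (0.939) and C2CD3 (0.938). ID2 had the least close neighbours, MGAT2 (0.94), SPSB1 (0.897) and ACTR1B (0.892). These values describe libraries that share treatments, so no p is given.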

How the data were processed

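Stranded mRNA libraries were sequenced in paired ends, and the 12 libraries of 4 groups were analysed. The authors aligned reads to hg19 with STAR 2.5.2b (tools from the submitters' processing notes, with bcl2fastq 2.17 and HTSeq) and deposited raw counts per gene for each library, without normalization. The counts of the strand that matches the gene were used. The authors also deposited HTSeq counts on exons and on whole genes (Gencode v19), and rMATS tables of inclusion and skipping read counts whose libraries carry no replicate names. Their p-values, FDR values and differences in inclusion were not used.

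Counts were tested with edgeR 4.0.16 in R 4.3.3 (filterByExpr, TMM scaling, quasi-likelihood test, Benjamini-Hochberg adjustment over all genes tested). A gene passed at an adjusted p under 0.05 and was called with a change of at least 2-fold as well. Groups were fitted together, additive terms in a model of their own. For intronic against exonic reads, and for inclusion against skipping reads, the edgeR model also held the library as a term. A splicing event was called when inclusion differed by at least 0.2. The scripts were tested on simulated data. DESeq2 1.42.0 was an alternative, with other scalings, filters and counts, a replicate block and each library left out.

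The main tests did not pair replicates. Same-numbered untreated and Cisplatin-treated control libraries deviated together (r = 0.635, 0.733 and 0.48). Pairing within control cells was therefore run as an alternative, from the data and not from the labels. Depleted libraries did so less (0.412, -0.069 and 0.297). Same-numbered control and depleted libraries hardly deviated together (0.0234, 0.00781 and 0.137 untreated, -0.204, 0.0859 and -0.024 with Cisplatin). The replicate block over all libraries nevertheless treats them as paired. Depth limits ID4 most, and precision covers these libraries only. The members and all lists were chosen with earlier results of these data known. Other genes were named by a rule: the 3 largest called rises and falls among pathway genes that averaged 1 CPM or more, and the 3 genes most correlated with each member. Of the genes so chosen, 1 is not reported here. RNF113A was the check of the labels, and its RNA was lower past the test in untreated but not in Cisplatin-treated depleted cells. Promoters came from RefSeq (GRCh38.p14), were placed on GRCh37 by exact match, and were searched with Python 3.11.15.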

Additional observations from a re-analysis of the deposited data

Results flagged for a closer look

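ID2 responded to Cisplatin differently in control and depleted cells. The difference of the log2 fold changes was 1.056 (SE 0.213, adjusted p = 0.0207, edgeR's quasi-likelihood test), from -0.84 in control and 0.22 in depleted cells. All 3 treated control libraries lay below all untreated ones, whereas in depleted cells the libraries overlapped, with Cisplatin-treated replicate 3 (73.64 CPM) the highest. The difference ranged from 0.80 to 1.15 when 1 library was left out and passed in 8 of 12 such fits.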

How the results depend on the processing

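Of 1786 values of single genes under an alternative, 1624 kept their direction and side of the threshold, 58 passed only under the alternative, 54 only in the main analysis and 50 changed sign; the cause was not tested. Members called in Cisplatin-treated against untreated control cells were 2 instead of 1 with no filter, at least 10 counts in every library, HTSeq counts, the replicate block (all libraries, or control libraries only) and DESeq2, and 1 to 3 with 1 library left out. For depletion in untreated cells 2 instead of 1 were called with the replicate block and without both control replicates 2 (1 to 2 with 1 library left out), and members past the test were 6 instead of 3 (1 to 5). Without the pair they were 7 instead of 4 for depletion with Cisplatin (3 to 6), 5 instead of 1 for the interaction (0 to 4; 2 with DESeq2), with 2 called (0 to 3), and 1 instead of 0 was called for the additive depletion term, for which 3 to 5 passed with 1 library left out. Intronic ratios past the test were 1 instead of 2 for depletion in untreated cells when genes with fewer genic than exonic reads were kept (0 to 4 with 1 library left out), and 0 to 5 for Cisplatin in control cells. Changes of sign with library size scaling were 0.081 for SMAD3 (additive Cisplatin term), 0.0076 for ID1 (additive depletion term) and 0.089 for TGFB2 (Cisplatin in depleted cells). With HTSeq counts they were 0.023 for ID1, -0.0092 for ID3 (Cisplatin in control cells) and 0.031 for ID4 (depletion with Cisplatin); with at least 10 counts 0.0011 for ID1; with the replicate block 0.022 for ID1 and 0.11 for ID4. Without both control replicates 2 they were 0.21 for ID1, 0.58 for ID4, 0.0018 for ID2 (depletion with Cisplatin) and -0.0012 for the intronic ratio of BMP4 (Cisplatin in depleted cells). With 1 library left out, the ranges that crossed 0 were -0.098 to 0.059 for SMAD3 and -0.11 to 0.10 for ID1 (additive terms); -0.28 to 0.35 for ID3 and -0.32 to 0.067 for SMAD3 (Cisplatin in control cells); -0.031 to 0.32 for ID2 and -0.13 to 0.12 for TGFB2 (Cisplatin in depleted cells); -0.044 to 0.44 for ID3 (depletion, untreated); -0.27 to 0.065 for ID2 and -0.33 to 0.53 for ID4 (depletion with Cisplatin); -0.015 to 0.41 for SMAD3 and -0.011 to 0.28 for BMP4 (interaction). For intronic ratios they were -0.40 to 0.58 for ID2 and -0.12 to 0.60 for SMAD7 (Cisplatin in control cells), -0.016 to 0.11 for ID3 and -0.072 to 0.086 for BMP4 (Cisplatin in depleted cells), and -0.14 to 1.04 for ID4 (depletion with Cisplatin). The replicate block changed the side of the threshold in the cases given for BMP4, TGFB2 and ID4, and for the intronic ratio of SMAD7 upon depletion in untreated cells (0.80, adjusted p = 0.0409). ID4, at 2.107 to 16.88 CPM, is limited most by depth.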
